A study of Drosophila melanogaster with 22 samples.

Results

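Chromatin accessibility was examined at 1008 regions next to autosomal genes that held an ATAC-seq peak in some fly heart libraries and not in others. All deposited peaks of the 22 libraries were merged, which gave 14325 regions. The 1008 lay on 2L, 2R, 3L or 3R, came within 500 bp of either end of a protein-coding gene in the RefSeq table, and held a peak in at least 3 and at most 15 libraries. They are called variable gene-end regions here. They were chosen on the measured presence of peaks over all libraries together, without regard to group, so how many libraries open them is a description of the choice and not a result.

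The data are bulk ATAC-seq peak lists from isolated Drosophila melanogaster hearts in 6 groups. Hearts of w1118, a laboratory strain that carries no driver here, came from flies aged 5 weeks (3 libraries) and 1 week (3). The other groups were all aged 1 week and carried Hand-Gal4, a driver active in heart and pericardial cells, crossed to LamC RNAi (4), to its attp2 control (4), to LamB RNAi (5) or to its attp40 control (3). LamB is the name the labels give to the B-type lamin gene Lam. The stated aim was to find regions whose accessibility changes both in ageing hearts and after loss of either lamin. The design text counts 3 LamC RNAi and 4 LamB RNAi libraries and the sample labels give 4 and 5, and every labelled library was used. Separate pools of flies for the libraries within a group are not mentioned in the labels. The spread behind the p-values is that between libraries and may be technical.

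In ATAC-seq a transposase cuts DNA that is free of nucleosomes, and a peak is a stretch where cuts pile up over the local background. Promoters of genes in use are usually nucleosome-depleted and give the strongest peaks, while gene stops and promoters of weakly used genes give weaker ones. Lamins are filament proteins beneath the nuclear envelope, where they hold silent chromatin at the nuclear edge. A bulk library cannot tell a region open in few cells from one weakly open in many.

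Most autosomal gene-end regions were either open everywhere or close to it, and the 1008 variable ones formed the flat middle of the distribution. A peak was present in all 22 libraries at 3303 gene-end regions, in 16 to 21 libraries at 944 and in 1 or 2 libraries at 470. At the edges of the rule, 117 regions had a peak in 3 libraries and 157 in 2, with median peak folds over background of 2.99 and 2.79, and 93 had a peak in 15 libraries and 87 in 16, with median folds of 3.72 and 3.80. The edges therefore cut through a continuum. By distance, 19 regions lay 451 to 500 bp from the nearest gene end, and 15 otherwise alike lay at 501 to 550 bp.

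**Figure D1:**
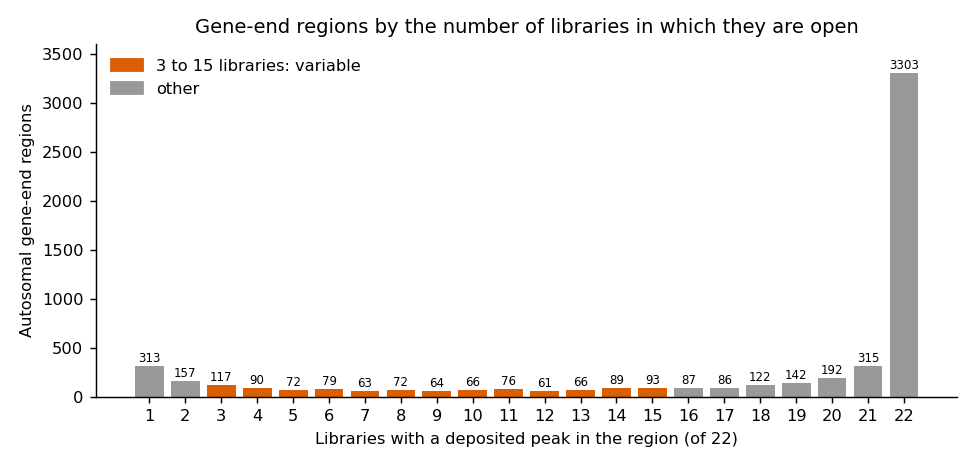
Number of autosomal gene-end regions (y axis) by the number of the 22 libraries with a deposited peak in them (x axis), with the 1008 variable regions in orange and the others in grey. Counts between 3 and 15 libraries run from 61 to 117 per bar, against 3303 regions open in all 22.

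The variable regions were narrower and weaker than gene-end regions open in every library. Their median width was 395 bp, against 1008 bp for the 3303 regions open in all libraries, and the median fold of their peaks was 3.49, against 6.98. They covered a gene end in 711 cases, or 70.5%, against 94.0% of the regions open in all libraries, and 520 of them, or 51.6%, lay near the ends of at least 2 genes, against 67.3%. Only 12.5% lay inside no gene. They were spread over the arms, with 233 on 2L, 238 on 2R, 253 on 3L and 284 on 3R. The other autosomal regions with a peak in 3 to 15 libraries, 1949 that lay away from gene ends, had a median width of 374 bp and a median fold of 3.09, values close to those of the variable gene-end regions. Among the variable regions, 141 (14%) lay within 1 kb of another region open in all libraries, as did 11.7% of the gene-end regions that were themselves open in all libraries.

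A total of 1525 of 11645 autosomal protein-coding genes, or 13%, had a variable region at an end. Of these, 509 also had an end region open in all 22 libraries, so for them the variable region was a second site or lay at the other end of the gene. Genes with a variable region spanned a median of 2.17 kb, against 2.93 kb for the 5267 genes with an end open in all libraries, 1.41 kb for the 4378 genes with no end region in 3 or more libraries, and 2.08 kb for all autosomal genes. The gene table holds spans without strand, so starts and stops of genes are not told apart here.

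How many variable regions a library opened followed the length of its peak list. The deposited lists held 8491 to 12395 peaks, and the number of variable regions with a peak correlated with list length across the 22 libraries (Pearson r = 0.87, Spearman rho = 0.84, given as a description, since the rule and the list length both count peaks). For the comparisons each list was therefore cut to the 8491 peaks of highest deposited −log10 p, as many as the shortest list holds. In the cut lists 188 of the 1008 regions had no peak in any library, 261 had one in 1 or 2 libraries, and 559 had one in at least 3. These 559 were tested together with the rest of the 9848 regions that met the same minimum. The 559 are not all members, since a region can pass the minimum only through the group in which it is open.

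In the deposited lists the w1118 groups opened the most variable regions on average, while the highest single library was LamC RNAi replicate 4. Of the 1008, 704, 538 and 630 had a peak in the 5-week w1118 libraries and 511, 451 and 564 in the 1-week ones. The LamC RNAi libraries had 325, 298, 118 and 722, and their attp2 controls 216, 386, 578 and 234. The LamB RNAi libraries had 260, 474, 212, 311 and 626, and their attp40 controls 311, 257 and 139. The 6 w1118 libraries had 566 ± 89.6 (SD) and the 16 attp-line libraries 342 ± 174, a difference of 225 (exact permutation test, two-sided, p = 0.00965, adjusted over 5 comparisons 0.0482), with overlapping ranges. The rule was applied to these same lists. Its limit of 15 libraries keeps regions open in the 6 w1118 libraries alone and drops those open in all 16 attp-line libraries. Nothing on strain is therefore read from this p-value.

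At equal list length that difference was smaller and did not pass. The w1118 libraries then had 241 ± 67.4 variable regions and the attp-line libraries 182 ± 79.8, a difference of 59.2 (exact permutation p = 0.144, adjusted 0.359). The 5-week w1118 libraries had 284 ± 75.7 and the 1-week ones 199 ± 12.9 (SD, n = 3 each, exact permutation p = 0.1, the smallest that 3 against 3 libraries allow). LamC RNAi libraries had 212 ± 139.5 and attp2 libraries 165 ± 37.2 (n = 4 each, exact permutation p = 0.771). LamB RNAi libraries had 191 ± 78.2 (n = 5) and attp40 libraries 150 ± 12.8 (n = 3, exact permutation p = 0.464). Within the knockdown groups the spread came largely from 1 library each, since LamC RNAi replicate 4 had 415 regions against 98 to 175 in the other 3, and LamB RNAi replicate 5 had 308 against 113 to 220 in the other 4. The lists of LamC RNAi replicates 3 and 4 carry the same date, and whether they share flies is not stated. In the 5-week w1118 group, replicate 3 had 365 against 215 and 272. These 3 libraries held the most variable regions in the cut lists and were picked after the counts were seen. Results without them are given below. Across the 22 libraries the cut-list number still followed deposited list length (Pearson r = 0.55, Spearman rho = 0.61, a description), and it ran against the library's median peak fold (Pearson r and Spearman rho both −0.79, a description).

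**Figure D2:**
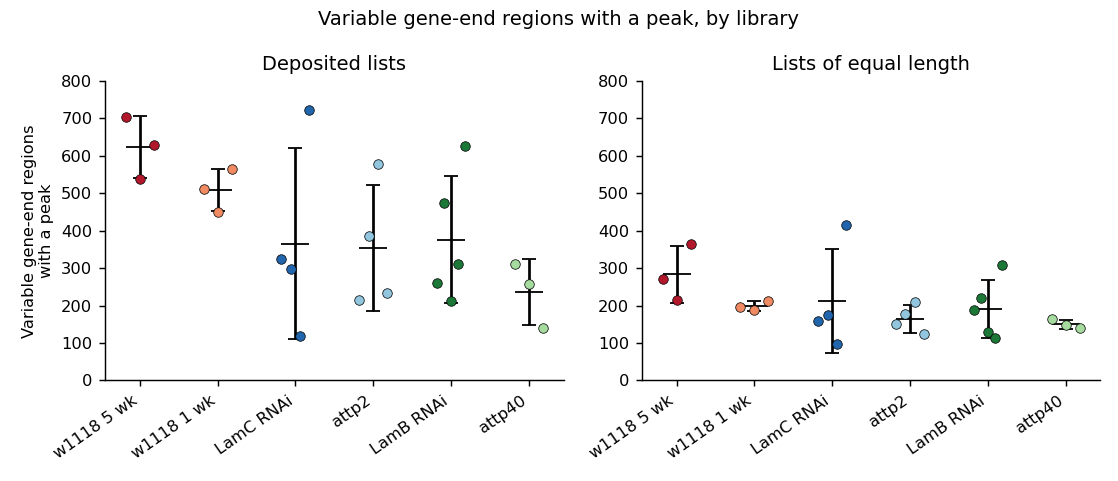
Variable gene-end regions with a peak in each library (y axis, count) in the deposited lists (left) and in lists cut to equal length (right), by group. Points are libraries, horizontal bars are group means and whiskers are 1 SD; LamC RNAi replicate 4, at 722 and 415, is the highest point of both panels.

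Presence was patchy within groups. A variable region had a peak in at least 1 library of a group at 85.7% of regions for 5-week w1118, 76.1% for 1-week w1118, 80.2% for LamC RNAi, 73.9% for attp2, 81.5% for LamB RNAi and 49.1% for attp40. Peaks in all libraries of a group at once were far less common, at 358 regions for 5-week w1118, 253 for 1-week w1118, 28 for LamC RNAi, 36 for attp2, 42 for LamB RNAi and 30 for attp40. Across groups, 290 regions (28.8%) had a peak in at least 1 library of all 6 groups. Only 33 were open in w1118 libraries alone and 67 in attp-line libraries alone, 9 were open only in RNAi libraries, 6 only at 5 weeks and 2 only in 1-week w1118. These counts depend on the number of libraries per group, on the uncut list lengths and on the rule. They stand without a share over all regions, so nothing on age, strain or knockdown is read from them. Over the 1008 regions the rank scores of libraries of 1 group correlated with a median Pearson r of 0.362 (0.057 to 0.627 over 31 pairs) and those of different groups with 0.244. Over all regions of the genome the same medians were 0.913 and 0.897. The rule leaves out regions open in every library, which lowers such correlations, so nothing is read from the gap.

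The comparisons below use a rank score, which is 1 for the strongest peak of a cut list and falls to 0 for a region with no peak among the 8491. It is relative within a library and carries no unit of DNA. Scores were tested with limma over all 22 libraries, so a region's spread is estimated over all 6 groups, and adjusted p-values (Benjamini-Hochberg over 9848 regions, threshold 0.05) are given throughout. All 5 comparisons come from 1 fit, and those of strain and of attp line reuse the libraries of the first 3.

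With age, 9 of the 559 tested variable regions passed, 5 higher and 4 lower in 5-week than in 1-week w1118 hearts. That is 0.894% and 0.716% of those tested, beside 0.609% and 0.711% of all 9848 regions, so the share is near that of the genome. The regions that rose lay at RNASEK, CG34112, TP53INP with CG15019, Pura and caps, and those that fell lay at CG33296 with CG13793, CHKov2 with CG10669, CG43897, and Ugt36D1 with Ugt36E1.

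Near RNASEK, a small membrane protein named ribonuclease kappa (2R, 4186013 to 4186693), the 5-week libraries scored 0.288, 0.291 and 0.365 and the 1-week libraries 0.029, 0 and 0. All 3 old hearts were above all 3 young ones, with a difference of 0.305 ± 0.052 (limma SE, adjusted p = 0.00265). The 4 attp-line groups averaged 0.036 to 0.088 there. At CG34112 (3R, 4394257 to 4394539) the scores were 0.375, 0.281 and 0.256 at 5 weeks and 0 in all 3 libraries at 1 week, and no 1-week w1118 list held a peak there at any rank. The difference was 0.304 ± 0.062 (limma SE, adjusted p = 0.0135), and LamB RNAi hearts, which averaged 0.135, had peaks there in 3 of 5 libraries.

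TP53INP, the fly relative of mammalian proteins that act in autophagy, shares its region (3L, 4406442 to 4407181) with CG15019. Scores were 0.130, 0.464 and 0.336 at 5 weeks and 0, 0.083 and 0.045 at 1 week (limma adjusted p = 0.0160). Pura encodes a puratrophin-like guanine nucleotide exchange factor, and its region (3L, 7592528 to 7593637) scored 0.072, 0.332 and 0.235 at 5 weeks and 0, 0 and 0.048 at 1 week (limma adjusted p = 0.0120). The region at caps, which encodes a leucine-rich repeat protein of the cell surface used in nerve and muscle targeting (3L, 13279509 to 13280169), scored 0.153, 0.275 and 0.201 at 5 weeks and 0, 0 and 0.074 at 1 week (limma adjusted p = 0.00970). The age groups did not overlap at any of the 3, and the old libraries differed among themselves more than the young ones.

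The largest fall was at CG33296 and CG13793 (2L, 7716366 to 7716910), where scores were 0, 0.208 and 0.059 at 5 weeks and 0.430, 0.357 and 0.410 at 1 week. The difference was −0.310 ± 0.040 (limma SE, adjusted p = 0.000190). The attp-line groups averaged 0 to 0.018 there. At CHKov2 and CG10669 (3R, 25330997 to 25331343) scores were 0, 0.012 and 0 at 5 weeks and 0.362, 0.328 and 0.182 at 1 week (limma adjusted p = 0.0292). CG43897 (3L, 9813224 to 9813934) scored 0.050, 0.008 and 0 at 5 weeks and 0.167, 0.290 and 0.282 at 1 week (limma adjusted p = 0.00396). The region over Ugt36D1 and Ugt36E1, which encode UDP-glycosyltransferases that conjugate foreign and waste compounds (2L, 18826649 to 18826933), scored 0.029, 0 and 0 at 5 weeks and 0.316, 0.080 and 0.131 at 1 week (limma adjusted p = 0.0260). Again no old library reached the lowest young one at any of these regions. In the deposited lists all 3 libraries of both ages held a peak at TP53INP, Pura, caps, CG33296 and CHKov2. At RNASEK 3 old and 2 young libraries held one, and at CG43897 and Ugt36D1 2 old and 3 young. Many scores of 0 at these regions are thus peaks ranked below the cut, not missing peaks. Only CG34112 had no deposited peak at 1 of the ages.

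Each age call rested on the spread over all groups. With the fit limited to the 6 w1118 libraries, none of the 9 passed (limma adjusted p from 0.157 to 0.370), although the differences were the same size. With uncut lists 15 variable regions were called, 11 higher and 4 lower at 5 weeks, 1 of them among the 9, CG34112 (limma adjusted p = 0.0486). With peaks of −log10 q of at least 5 the calls were 9 higher and 2 lower, and by presence of a peak 4 higher and 0 lower. Of the 9, Pura and Ugt36D1 had a cut-list peak in only 2 libraries outside the age at which they are high, and so met the minimum through it. Leaving out 1 library ended the call of CG34112 without 1-week replicate 3 (limma adjusted p = 0.0519), of Pura without 5-week replicate 3 (0.0582) and of caps without 5-week replicate 2 (0.0518). TP53INP was lost without 5-week replicate 2 or 3 or 1-week replicate 1 or 3 (0.0575 to 0.0817) and Ugt36D1 without 5-week replicate 2 or 3 or 1-week replicate 1 (0.0662 to 0.106). CHKov2 was lost without any w1118 library but 1-week replicate 3 (0.0617 to 0.121). The calls at RNASEK, CG33296 and CG43897 passed without any 1 of the 6 libraries. Without the 3 libraries that opened the most variable regions, among them 5-week replicate 3, 8 variable regions were called with age. Among these were 5 of the 9. The calls lost were Ugt36D1 (limma adjusted p = 0.143), CHKov2 (0.125), TP53INP (0.117) and Pura (0.0903).

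**Figure D3:**
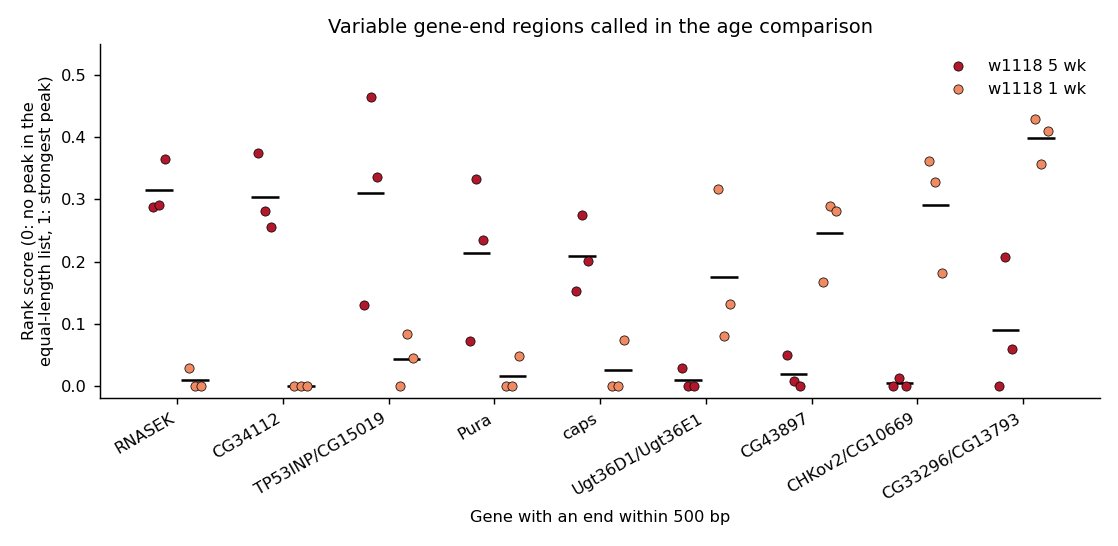
Rank score (y axis) of the 9 variable gene-end regions called in the age comparison, in each 5-week (dark red) and 1-week (orange) w1118 library; points are libraries and bars are group means. The 2 ages do not overlap at any of the 9.

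By presence alone, 43 variable regions had a peak in all 3 old libraries and in no young one, and 13 showed the reverse, in the deposited lists. These are 4.27% and 1.29% of the 1008, beside 1.65% and 0.906% of the 12028 regions with a peak in at least 3 deposited lists, and 5.95% and 3.44% of variable regions away from gene ends. The rule removes regions open everywhere, which cannot be all-or-none, so nothing is read from the higher share here or in the comparisons below. In equal-length lists 19 regions in all were all-or-none. Cks30A, which encodes a subunit of the cyclin-dependent kinase complex (2L, 9330620 to 9330902), was the strongest, with scores of 0.613, 0.493 and 0.577 at 5 weeks and 0 in the 3 libraries at 1 week. It did not pass the test (limma adjusted p = 0.180). The same site scored 0, 0.792, 0 and 0.628 after LamC RNAi and 0.531, 0, 0.521 and 0 in attp2. The regions at CG4230 with CG5828 and at Fign, a microtubule-severing protein, with CG8837 were also on in all old and off in all young libraries, with mean scores of 0.315 and 0.276 at 5 weeks (limma adjusted p = 0.160 and 0.209). In the other direction the regions at CG4842, at Gsc, a homeobox gene, at TkR99D, a tachykinin receptor, and at nub, a POU homeobox gene, had a peak in the 3 young and in none of the 3 old w1118 libraries, at mean scores of 0.094, 0.060, 0.040 and 0.010 at 1 week, near the floor of the lists.

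After LamC RNAi no variable region passed the test in either direction with limma, beside 0.0812% higher and 0.0711% lower over all 9848 regions. At an unadjusted p under 0.05, 31 were higher and 10 lower of the 559, and a test on presence of a peak called 2. The nearest to the threshold above attp2 was the region at Ugt301D1, another UDP-glycosyltransferase (2L, 18512937 to 18513671), with scores of 0.212, 0.203, 0 and 0.265 after LamC RNAi and 0 in all 4 attp2 libraries (limma adjusted p = 0.247). Next was syd, which encodes an adaptor between kinesin and its cargo, with scores of 0.038, 0.389, 0.418 and 0.167 after LamC RNAi and 0.022, 0, 0.001 and 0 in attp2 (limma adjusted p = 0.352). The syd groups do not overlap and the Ugt301D1 groups touch at 0, through LamC RNAi replicate 3.

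Below attp2, the nearest were the regions at CG16787 with alpha-Catr, an alpha-catenin relative, and at RpL8, a protein of the large ribosomal subunit. The first scored 0, 0, 0 and 0.334 after LamC RNAi and 0.591, 0.440, 0.231 and 0.407 in attp2 (limma adjusted p = 0.443). RpL8 (3L, 2587358 to 2587717) scored 0, 0, 0 and 0.341 after LamC RNAi and 0.6, 0.389, 0.506 and 0.510 in attp2 (limma adjusted p = 0.448). In both, the single LamC RNAi library with a peak was replicate 4, the one that opened the most variable regions, and its part in these values was not tested. By presence in the deposited lists, 3 variable regions had a peak in all 4 LamC RNAi libraries and in no attp2 library (0.298%, beside 0.0748% of all regions) and none showed the reverse (beside 0.0582%). Among variable regions away from gene ends the shares were 0.103% and 0.359%. The 3 regions lay at CG9471 with Whamy, an actin regulator of the WASP family, at CG4935 with twe, a Cdc25 phosphatase of the germline, and at CG13722 with CG11350, and their mean scores after LamC RNAi were 0.039, 0.028 and 0.025.

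After LamB RNAi 2 variable regions passed, 1 in each direction (0.179% each of the 559, beside 0.112% higher and 0.0711% lower over all regions). Inside CG13285 (3L, 5534366 to 5534587), 398 bp from its nearer end, scores were 0.306, 0.157, 0.231, 0.118 and 0.213 after LamB RNAi and 0 in the 3 attp40 libraries. The difference was 0.205 ± 0.041 (limma SE, adjusted p = 0.0407), and every LamB RNAi list held a peak there and no attp40 list did. At hoka, which encodes a membrane protein of septate junctions, with CG13705 (3L, 4898789 to 4899472), scores were 0 in all 5 LamB RNAi libraries and 0.041, 0.195 and 0.174 in attp40 (limma adjusted p = 0.0308). Only attp40 scored above 0 at hoka among the 6 groups, so the region met the minimum of 3 cut lists through the group in which it is high, and the spread that its p-value rests on is mostly one of zeros. In the deposited lists 11 libraries held a peak there, 2 of the 5 LamB RNAi libraries among them.

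Neither LamB call was stable. With only the 8 libraries of the comparison the limma adjusted p was 0.461 for CG13285 and 0.554 for hoka, and leaving out attp40 replicate 3 gave 0.144 and 0.152, with no variable region called. By the dates attached to the peak lists, which the labels do not explain, that library is from February and the remaining 7 of the comparison are from July. No variable region was called without LamB RNAi replicate 1, 3 or 5 either, and 4 were called without replicate 2 and 1 without replicate 4. Among these repeats CG13285 passed only without LamB RNAi replicate 2 or 4, and hoka only without LamB RNAi replicate 2 or attp40 replicate 1 (limma adjusted p from 0.0541 to 0.152 in the repeats where either call was lost).

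By presence, 7 regions had a peak in all 5 LamB RNAi libraries and in no attp40 library and 1 showed the reverse (0.694% and 0.0992%, beside 0.333% and 0.0333% of all regions). Among variable regions away from gene ends the shares were 0.924% and 0.0513%. Besides CG13285 the 7 regions included CG4230 with CG5828 (2L, 5096294 to 5096596), with scores of 0.383, 0.106, 0.519, 0.514 and 0.365 after LamB RNAi and 0 in attp40 (limma adjusted p = 0.119). The same region was on in the 3 old and off in the 3 young w1118 hearts, and it averaged 0.042 after LamC RNAi and 0.177 in attp2. At CG9451 with CG9452 scores were 0.129, 0, 0.182, 0.137 and 0.164 after LamB RNAi and 0 in attp40 (limma adjusted p = 0.257). Claspin, which encodes a replication checkpoint protein, averaged 0.118 ± 0.146 after LamB RNAi and 0 in attp40 (SD, n = 5 and 3, limma adjusted p = 0.911). The region with the reverse pattern lay near CG42709 inside Atg1, the kinase that starts autophagy, at 0 after LamB RNAi and 0.029 ± 0.031 in attp40 (SD, n = 5 and 3, limma adjusted p = 0.971). Other regions closest to the threshold on the lower side were at CG33281 and jigr1, at 0 in the 5 LamB RNAi libraries and 0.232 ± 0.205 and 0.094 ± 0.084 in attp40 (SD, n = 3, limma adjusted p = 0.0953 and 0.228).

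Between strains, 29 variable regions passed, all higher in w1118 than in the attp lines and none lower (5.19% and 0% of the 559, beside 3.26% higher and 2.76% lower over all 9848 regions; 12 were lower at an unadjusted p under 0.05, and a test on presence of a peak called 2 lower). The rule bears on this direction. A region open in all 16 attp-line libraries and shut in w1118 has a peak in 16 libraries and lies just outside the limit, whereas one open in the 6 w1118 libraries alone lies inside. Among gene-end regions with a peak in 16 to 21 libraries, 31 were higher and 21 lower in w1118 of 942 tested, and among those open in all 22 libraries 52 were higher and 96 lower of 3303. The lack of lower calls is therefore not a result about these regions.

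The 6 largest strain differences were at Acyp2 with c(3)G, TfIIEalpha, CG33107 with CG6937, Jheh3 with CG43069, CG33296 with CG13793, and CG6607 with Jhbp12. The region over Acyp2, an acylphosphatase, and c(3)G, the transverse filament protein of the synaptonemal complex (3R, 15792560 to 15792937), scored from 0.222 to 0.587 with a median of 0.442 in the 6 w1118 libraries, and from 0 to 0.380 with a median of 0 in the 16 attp-line libraries. The difference was 0.378 ± 0.054 (limma SE, adjusted p = 9.44e-05), with overlap through 1 attp-line library, attp2 replicate 3. At TfIIEalpha, a subunit of the general transcription factor that loads TFIIH (3L, 11681902 to 11682244), w1118 scores ran from 0.193 to 0.508 around a median of 0.402 and attp-line scores from 0 to 0.256 around 0.008 (limma adjusted p = 0.00261). Mean scores at both regions were alike in the 2 w1118 ages, at 0.468 and 0.408 for Acyp2 and 0.381 and 0.394 for TfIIEalpha at 5 weeks and 1 week.

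Jheh3 encodes a juvenile hormone epoxide hydrolase, and its region (2R, 18861909 to 18862647) was the widest of the 6, with a median peak width of 634 bp. It scored from 0.089 to 0.379 in w1118, with a median of 0.259, and was at 0 in all attp-line libraries but attp2 replicate 4, which scored 0.200 (limma adjusted p = 6.86e-05). The region at CG6607 and Jhbp12, a juvenile hormone binding protein (3R, 24527984 to 24528293), scored from 0.274 to 0.445 around 0.388 in w1118 and from 0 to 0.373 around 0.110 in the attp lines (limma adjusted p = 0.0293), and this call was lost on leaving out any w1118 library but 1-week replicate 3, or attp40 replicate 3 (limma adjusted p from 0.0503 to 0.0785). At CG33107 and CG6937 w1118 scores ran from 0 to 0.463 around 0.350 and attp-line scores from 0 to 0.291 around 0 (limma adjusted p = 0.00140). At CG33296 and CG13793, the region that was lower in old hearts, w1118 scores ran from 0 to 0.430 around 0.283 and attp-line scores from 0 to 0.053 around 0, with the smallest adjusted p of the set (4.56e-07, limma). The regions at Jheh3, CG33107 and CG33296 had a cut-list peak in fewer than 3 attp-line libraries. They met the minimum through w1118, the side on which they are high, which bears on their p-values.

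Of the 9 regions called with age, 7 were also called as higher in w1118, and these calls share the 6 w1118 libraries. No share over all regions stands beside this overlap, so nothing is read from it. Mean scores in 1-week w1118 were only 0.010 at RNASEK, 0.043 at TP53INP, 0.016 at Pura and 0.025 at caps. There the strain call came mainly from the 5-week libraries. At CG33296, CG43897 and Ugt36D1 the 1-week means were the higher ones, at 0.399, 0.246 and 0.176. The remaining strain calls included regions at numb, an inhibitor of Notch signalling, with RpS28-like, at borr, a component of the chromosomal passenger complex, at mtDNA-helicase, the mitochondrial replicative helicase, at stai, which encodes stathmin, at Rab11, a GTPase of recycling endosomes, with ppan, and at l(2)gl, a cell polarity gene, with Ir21a. Mean scores in w1118 and in the attp lines were 0.084 and 0 at numb, 0.193 and 0 at borr, 0.137 and 0.004 at mtDNA-helicase, 0.108 and 0.004 at stai, 0.213 and 0.040 at Rab11, and 0.070 and 0.001 at l(2)gl (limma adjusted p from 0.000446 to 0.0333 over the 6). Only the region at numb did not overlap between the 6 w1118 and the 16 attp-line libraries among the 29. Of the 29, 19 had a cut-list peak in fewer than 3 attp-line libraries and so met the minimum through w1118, the side on which they are high. In 5 of these no attp-line cut list held a peak: numb, borr, CG31810, CG11125, and CG14567 with CG14566. Without the 3 libraries that opened the most variable regions 21 of the 29 were still called. The 8 that were lost lay at stai, RNASEK, Ir62a, Gr64a, CG14567, Irbp, CG14543 and osy (limma adjusted p from 0.0526 to 0.162). Leaving out 1 library at a time kept 21 to 28 of the 29, the fewest without 1-week w1118 replicate 1. The chemoreceptor genes Ir62a, Gr64a and Ir21a were among the genes at these 29 regions, and Ir62a (3L, 1528951 to 1529465) averaged 0.209 in w1118 and 0.006 in the attp lines (limma adjusted p = 0.00628).

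With 1-week control hearts alone (w1118 against attp2 and attp40) 11 variable regions were called, all higher in w1118, and 9 of them were among the 29. The other 20 of the 29 were not called there. The rule bears on the direction here too, and no share over all regions stands beside the count, so nothing is read from it. In that comparison the limma adjusted p was 0.0182 for Acyp2, 0.0495 for Jheh3 and 1.41e-07 for CG33296, and 0.0933 for TfIIEalpha, 0.135 for CG33107 and 0.257 for CG6607. In the deposited lists 3 regions had a peak in all 6 w1118 libraries and in none of the 16 attp-line libraries, and none showed the reverse (0.298% and 0%, beside 0.108% and 0.00831% of all regions). Among variable regions away from gene ends the shares were 0.359% and 0%. The 3 regions lay at Cyp317a1, a cytochrome P450, at CG30403 inside HmgD, and at CG7607 and Plod, which encodes a collagen-modifying lysyl hydroxylase. All 3 were weak, with highest w1118 scores of 0.144, 0.131 and 0. The w1118 and attp-line flies also differ in the Hand-Gal4 cross, and their files carry dates in different months, so strain, driver and date cannot be told apart. For the 29 calls the w1118 side also held the 3 libraries aged 5 weeks, while all attp-line flies were aged 1 week. Age therefore cannot be told apart from strain in those calls either.

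**Figure D4:**
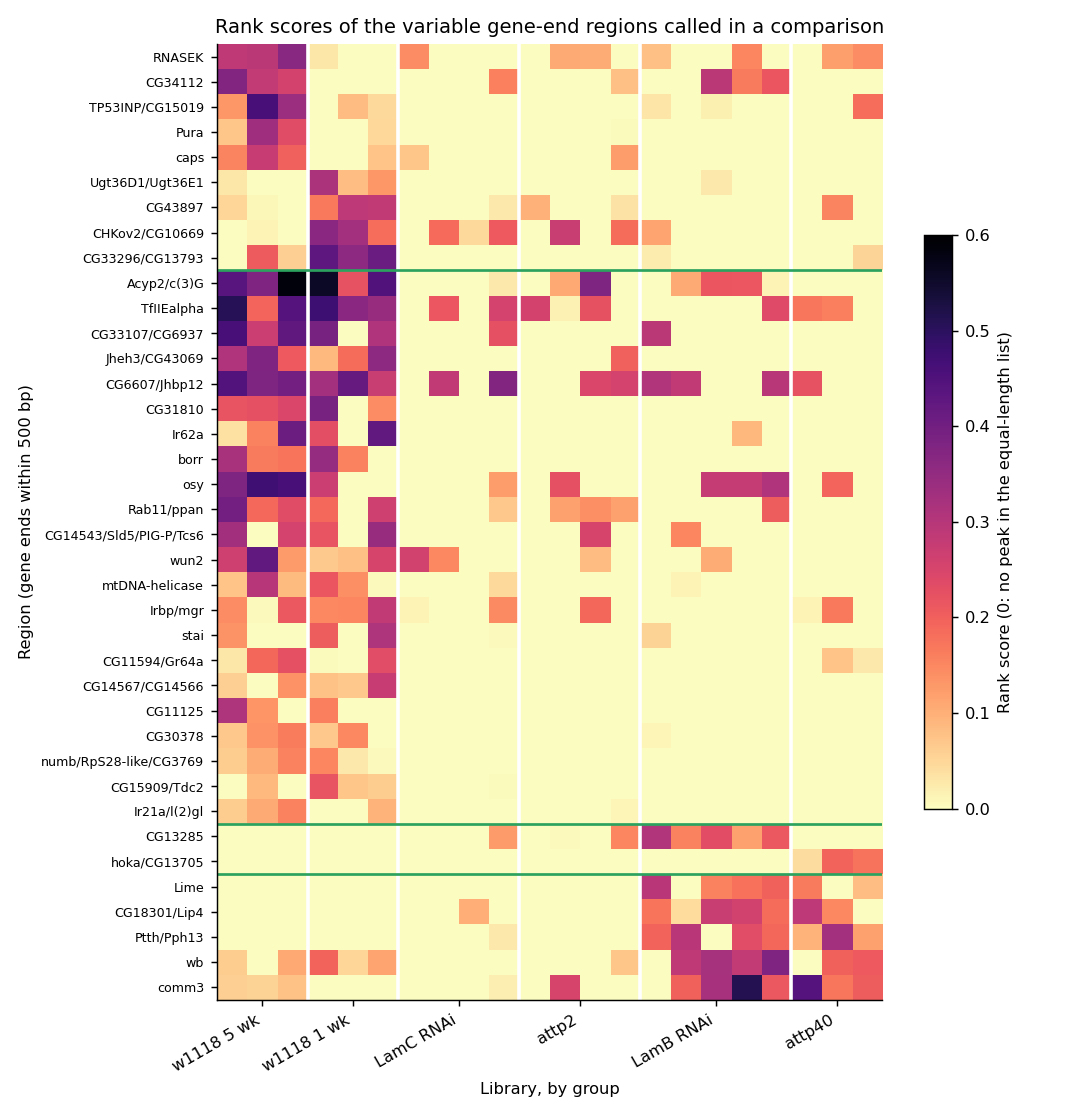
Rank score (colour) of the 38 variable gene-end regions called in at least 1 comparison, in each of the 22 libraries (columns, by group). From the top, green lines separate the 9 called with age, 22 more called between w1118 and the attp lines, 2 called after LamB RNAi, and 5 more called between the attp lines. A region called in several comparisons is drawn in the first of these blocks only.

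Between the 2 attp backgrounds, 6 variable regions passed, all lower in attp2 and LamC RNAi than in attp40 and LamB RNAi libraries (1.07% of the 559, beside 2.40% of all regions). None was higher (beside 0.772%; 23 were at an unadjusted limma p under 0.05, and a test on presence of a peak called none higher). With uncut lists 6 were higher and 16 lower, and leaving out 1 library gave up to 3 higher, the most without LamC RNAi replicate 3. The region inside comm3, a relative of the gene commissureless that controls Robo receptors (3L, 15647069 to 15647409), scored from 0 to 0.252 with a median of 0 in the 8 attp2-side libraries and from 0 to 0.512 with a median of 0.209 in the 8 attp40-side libraries. The difference was −0.226 ± 0.056 (limma SE, adjusted p = 0.0301), and the sides overlap. At wb, a laminin alpha chain of the basement membrane (2L, 14262849 to 14263214), the attp2 side ran from 0 to 0.072 around 0 and the attp40 side from 0 to 0.379 around 0.245 (limma adjusted p = 0.0246).

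The most stable of the 6 was the region at Ptth, the neuropeptide that triggers ecdysone release, with Pph13, a photoreceptor homeobox gene (2L, 576735 to 577057). Its deposited peaks were in 1 of the 8 attp2-side libraries, 7 of the 8 attp40-side libraries and no w1118 library. It scored from 0 to 0.026 on the attp2 side and from 0 to 0.326 around 0.193 on the attp40 side (limma adjusted p = 0.00640), with means of 0.182 after LamB RNAi and 0.179 in attp40, so the knockdown and its control were alike there. It was the only 1 of the 6 still called with the 16 attp-line libraries alone (limma adjusted p = 0.0366), and also the only one without the 3 libraries that opened the most variable regions (0.0284). The region at CG18301 and Lip4, a lipase, ran from 0 to 0.103 on the attp2 side and from 0 to 0.290 around 0.177 on the attp40 side (limma adjusted p = 0.0191). That near Lime, a zinc finger gene that links immunity and metabolism, was at 0 in all 8 attp2-side libraries and ran from 0 to 0.295 around 0.160 on the attp40 side (limma adjusted p = 0.0288). The remaining one was hoka, described above, at a score of 0 in all attp-line libraries but the 3 of attp40 (limma adjusted p = 0.0425). Of the 6, Ptth, CG18301, Lime and hoka had a cut-list peak in fewer than 3 libraries outside the attp40 side and so met the minimum through it. The Ptth call passed without any 1 of the 16 attp-line libraries. The call at wb was lost without attp40 replicate 2 or 3 (limma adjusted p = 0.0598 and 0.0832) and that at CG18301 without attp40 replicate 1 (0.0589). Lime was lost without LamC RNAi replicate 2 or 4, attp2 replicate 3 or attp40 replicate 1 or 3 (0.0502 to 0.0849). The comm3 call was lost without LamC RNAi replicate 2 or 4, attp2 replicate 1, 3 or 4, LamB RNAi replicate 3 or attp40 replicate 1 (0.0527 to 0.0921). That at hoka passed only without LamB RNAi replicate 2 or attp40 replicate 1 (0.0523 to 0.121 without any other).

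In the deposited lists 1 region, at Ptr, a patched-related gene, had a peak in all 8 attp40-side libraries and in none of the attp2 side (0.0992%, beside 0.0166% of all regions), and none showed the reverse (beside 0.0166%). Among variable regions away from gene ends the shares were 0.0513% and 0.103%. Scores at Ptr were near 0 on both sides, with a highest of 0.042 on the attp40 side. The attp lines differ in landing site and in the dates of their files, so line and date cannot be told apart.

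Some variable regions ranked high in at least 1 library and had no peak in several others. A score of at least 0.5 in some library was reached by 35 regions, and each of them had no peak at any rank in 7 to 13 libraries. The rule leaves every variable region without a peak in at least 7 libraries, so these absences are not a result. The peaks of the 35 regions had a median fold of 5.57, against 3.45 at the other 973 variable regions, and a median width of 198 bp, against 242 bp. The narrowest peak a library's list holds was 109 to 164 bp. Of the 431 peaks of the 35 regions 40.1% were at most 1.25 times that width, against 22.6% of peaks at the other variable regions and 2.09% of those at gene-end regions open in all libraries with a mean score of 0.4 to 0.6. This class was chosen after its values were seen and gets no test, and the part of the shortest peak length in these on-and-off patterns was not tested.

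At some of these sites presence varied within most groups. The region at thoc6, a subunit of an mRNA export complex (3L, 12193360 to 12193970), scored 0.660, 0.638 and 0.534 at 5 weeks and 0.621, 0 and 0 at 1 week in w1118. It scored 0.591, 0.445, 0 and 0.644 after LamC RNAi and 0, 0.374, 0.536 and 0 in attp2, and 0, 0.544, 0.457, 0.118 and 0.535 after LamB RNAi and 0.556, 0 and 0 in attp40. Every group thus held libraries near 0.5 and, but for 5-week w1118, libraries at 0. The region at vg, which encodes a co-activator of wing and flight muscle fate (2R, 12884442 to 12884598), scored 0.572, 0.423 and 0 at 5 weeks and 0.639, 0 and 0 at 1 week in w1118, and was at 0 in the 4 LamC RNAi libraries against 0.290, 0.466, 0.416 and 0 in attp2. Its median peak was 143.5 bp wide, 1.08 times the library minimum. Of the 35 regions, 14 had a median peak width within 1.25 times that minimum. At 15 of the 35 no peak was present in any of the 3 attp40 libraries, whose lists were among the shorter ones. Over all variable regions only 49.1% had a peak in any attp40 library, so this absence is not particular to the 35.

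Described by gene group, variable regions were found at few genes of the contractile heart program. None of the 30 autosomal genes of the sarcomere list had one, while 17 of them had an end open in all libraries. Nor had any of 9 fat body genes. Of 28 cardiac and mesodermal transcription factors 4 had one (14.3%), namely Doc1 and Doc2, T-box factors of the heart, srp, a GATA factor of blood and fat body, and zfh1, a zinc finger homeobox gene of the mesoderm. Of their 4 regions 3 were strong enough to test, and none was called in any of the 5 comparisons. The region shared by wts, a kinase of the Hippo pathway, and zfh1 (3R, 30789347 to 30789960) scored 0.480, 0.391, 0.546 and 0.282 after LamC RNAi and 0, 0.327, 0.418 and 0 in attp2 (limma adjusted p = 0.783). The Doc2 region (3L, 9019306 to 9019517) scored 0.531, 0.268, 0.321, 0 and 0.460 after LamB RNAi and 0.348, 0 and 0 in attp40, and its median peak was 1.12 times the narrowest of its library.

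Of 25 ion channel and calcium genes 3 had a variable region, the potassium channel gene Shal, the calcium pump gene SERCA and the sodium/calcium exchanger gene Calx. Their regions were weak, with a peak in 10, 9 and 9 deposited lists and in 2, 1 and 0 of the equal-length lists, so none was tested. Of 29 matrix and adhesion genes 6 (20.7%) had one: wb, Ilk, an integrin-associated kinase, the sarcoglycan genes Scgalpha and Scgbeta, prc, a collagen-like heart matrix protein, and rhea, which encodes talin. Only wb was called. Of 21 nuclear envelope genes 2 (9.52%) had one, Nup107, a nuclear pore subunit, and kuk, a farnesylated envelope protein, and neither was called. At Nup107 the mean score was 0.144 at 5 weeks and 0.191 at 1 week in w1118 (limma adjusted p = 0.924), 0.035 after LamC RNAi and 0.062 in attp2 (0.996), and 0.047 after LamB RNAi and 0.009 in attp40.

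Among energy, translation and protein turnover genes the shares ran from 9.09% to 27.6%. Variable regions were found at 6 of 44 mitochondrial genes (13.6%), 12 of 77 cytosolic ribosomal protein genes (15.6%), 9 of 62 mitochondrial ribosomal protein genes (14.5%) 7 of 42 proteasome genes (16.7%), 4 of 44 translation factor genes (9.09%) and 8 of 29 aminoacyl-tRNA synthetase genes (27.6%), beside 13% of all autosomal genes. ATPsynC, a subunit of the ATP synthase rotor, scored 0.270, 0.376 and 0.245 at 5 weeks and 0.258, 0 and 0 at 1 week in w1118 (limma adjusted p = 0.425). SdhD, a membrane anchor of succinate dehydrogenase, averaged 0.282 ± 0.031 at 5 weeks and 0.080 ± 0.139 at 1 week (SD, n = 3 each, limma adjusted p = 0.562). The third tested region of the mitochondrial list, at ND-15, a subunit of complex I, averaged 0.130 at 5 weeks and 0.112 at 1 week (limma adjusted p = 1). None of the 3 passed. Among 37 insulin, TOR and lipid genes 8 (21.6%) had one.

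Stress, detoxification and immune genes had shares from 17.4% to 23.5%, and 6 of 11, 5 of 12, 8 of 12 and 1 of 8 of their regions were strong enough to test in the stress, Ugt and Gst, cytochrome P450 and immune lists. Of 51 stress and proteostasis genes 12 (23.5%) had a variable region, among them Cat (catalase), Sod2, Gadd45, PEK, Hsp22 and Hsp68, and none of the 6 regions tested was called. Of 68 Ugt and Gst genes 16 (23.5%) had one, with 1 of 5 tested regions called, that over Ugt36D1. Of 70 cytochrome P450 genes 15 (21.4%) had one, and none of the 8 tested was called. Cyp6a16 averaged 0.262 ± 0.227 at 5 weeks and 0.014 ± 0.025 at 1 week in w1118 (SD, n = 3 each, limma adjusted p = 0.326). Of 46 immune genes 8 (17.4%) had one, including the antimicrobial peptide genes AttA, AttB, Dro and CecA2. The region between AttA and Dro had a peak in 3 of 3 5-week and 2 of 3 1-week w1118 lists and in 3 of 16 attp-line lists, and in only 1 equal-length list.

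Markers of some other cells that a dissected heart can carry also had variable regions. They were found at 6 of 18 trachea and epidermis genes (33.3%), 4 of 14 hemocyte genes (28.6%; Hml, Sr-CI, crq and srp), 5 of 18 germline genes (27.8%; bam, grk, piwi, twe and zuc), 2 of 10 nephrocyte genes and 2 of 16 neuron and glia genes. The share was 13% over all autosomal genes, 1 of 14 for somatic muscle identity genes (7.14%) and 0 of 9 for fat body genes. Of the regions strong enough to test none was called. These were 1 of the 6 trachea and epidermis regions, 2 of the 4 hemocyte regions, 4 of the 5 germline regions and the 1 somatic muscle region, and 0 of 2 in the nephrocyte and in the neuron and glia lists. Of a separate set of defining markers, 9 of 10 heart genes had an end or body open in at least 3 libraries and 7 in all 22, tin, an early heart homeobox gene, being the exception. Open in at least 3 libraries were 6 of 7 nephrocyte, 4 of 6 hemocyte, 6 of 6 fat body and 4 of 5 neuron markers. The same held for 3 of 4 germline, 4 of 5 trachea and epidermis, and 4 of 5 alary and body wall muscle markers. Open in all 22 were 5 of 7 nephrocyte, 6 of 6 fat body and 4 of 5 muscle markers, shares like that of heart or higher. The shares were lower than for heart at 3 of 6 hemocyte, 2 of 5 neuron, 1 of 4 germline, and 2 of 5 trachea and epidermis markers. The sets thus do not separate the heart from fat body, nephrocytes or muscle. The part of cell mixture in the variable regions was not tested.

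Variable regions were found at 20 of 200 chemoreceptor and odorant binding protein genes (10.0%), 4 of 111 cuticle protein genes (3.6%) and 1 of 116 histone genes (0.862%), beside 13% of all autosomal genes. The chemoreceptor list held 3 called regions of 13 tested, those at Ir62a, Ir21a and Gr64a, all higher in w1118, beside 38 of the 559 tested variable regions called in any comparison and 29 called higher in w1118. Over all 9848 regions 321 were called higher in w1118. All 3 had a cut-list peak in fewer than 3 attp-line libraries and so met the minimum through w1118. Ir62a and Gr64a were lost without the 3 libraries that opened the most variable regions (limma adjusted p = 0.0526 and 0.139). Nothing is therefore read from the count of this list. Ir21a and Gr64a share their regions with l(2)gl and CG11594.

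**Figure D5:**
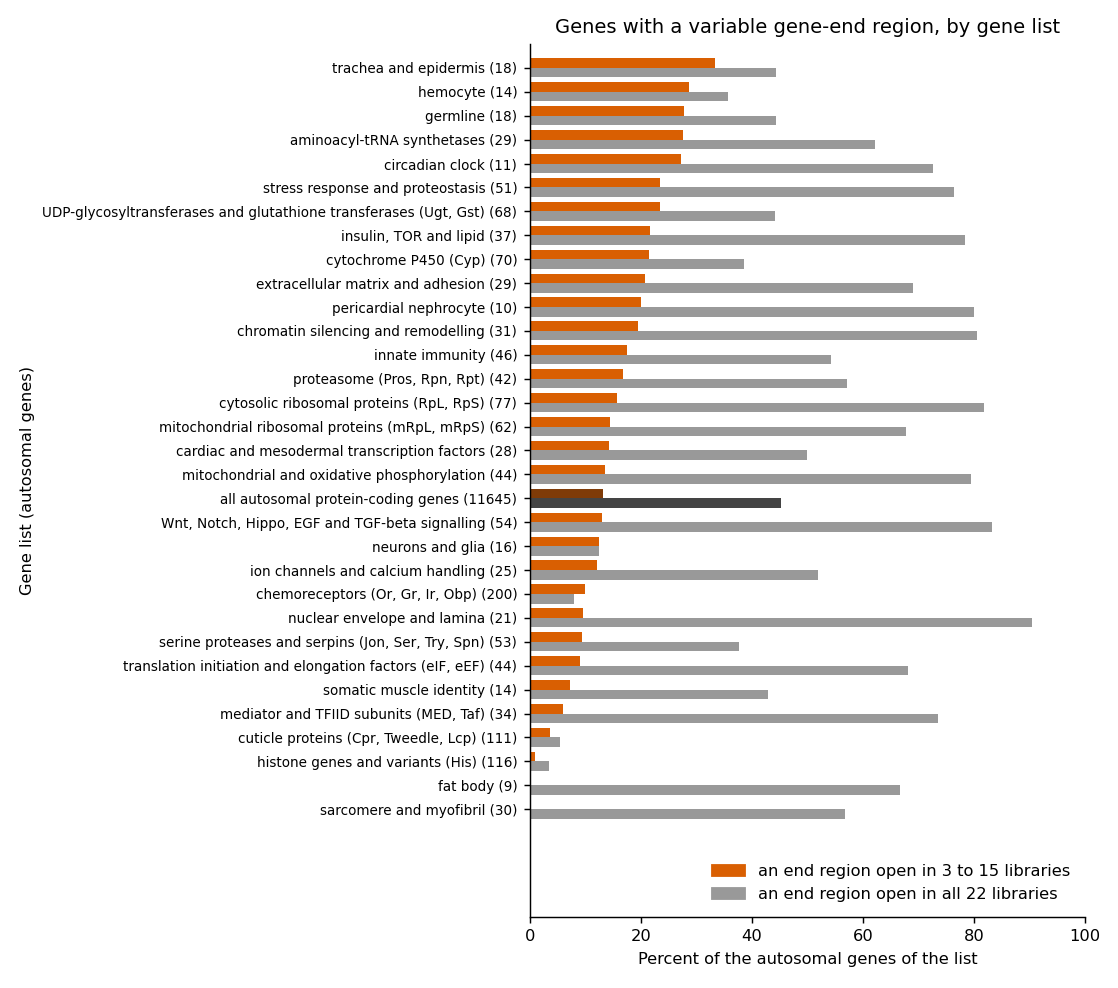
Percent of the autosomal genes of each list (x axis) with an end region open in 3 to 15 libraries (orange) or in all 22 (grey), with list sizes in parentheses and all 11645 autosomal genes in darker shades. The orange share runs from 0% for the sarcomere and fat body lists to 33.3% for trachea and epidermis, with 13% for all genes.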

How the data were processed

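The authors deposited 1 narrowPeak list per library (22 libraries, build dm6). Bowtie2, SAMtools, Picard and MACS2 were used, per the submitters' processing notes; their versions and settings, any transposase shift and the depth: not given in the sources used here. Per the file values, the deposited lists give each peak a fold ratio over background with −log10 p-values and −log10 q-values, the lowest −log10 q being 2.0. Merging used bedtools 2.31.1, with 1 bp as the least overlap. Gene ends came from the RefSeq gene table of the same release. Rank scores in lists cut to 8491 peaks were tested with limma 3.58.1 (R 4.3.3, trend) on 9848 regions with a peak in at least 3 cut lists. The fit was first tested on simulated data. The simulation shifted only regions of middling mean score and left out the floor of the rank score. It therefore does not show how the fit behaves at regions without a peak in most libraries. Counts per library were compared with exact permutation tests, two-sided, adjusted over the 5 comparisons (scipy 1.17.1, pandas 2.3.3, numpy 2.4.6, Python 3.11.15). Figures used matplotlib 3.10.9. In each comparison and direction the text names the 6 called regions with the largest score difference, the 2 of lowest p where fewer than 4 were called, the 4 all-or-none regions with the largest difference, and up to 3 regions per gene list; thoc6 and the further strain calls were named after their values were seen. The members and lists were chosen with earlier results of these data known.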

Additional observations from a re-analysis of the deposited data

Results flagged for a closer look

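Of 29 groups of 4 or 5 libraries examined at the named regions and for the number of variable regions, 11 held a library far from the others (Dixon's criterion), where chance flags about 1 in 20 groups. In 10 of them a library scored above others that were at or near 0. After LamC RNAi these were scores of 0.027 at Acyp2 and c(3)G, 0.226 at CG33107 and CG6937, 0.020 at comm3, 0.026 at Ptth and Pph13, and 0.103 at CG18301 and Lip4. After LamB RNAi they were 0.239 at TfIIEalpha and 0.291 at CG33107 and CG6937. In attp2 they were 0.200 at Jheh3 and CG43069, 0.252 at comm3 and 0.072 at wb. In the remaining group 1 LamB RNAi library scored 0 at wb, below the other 4. A score that is 0 in all libraries but 1 meets this criterion at any height, and no explanation was tested.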

How the results depend on the processing

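The number of called regions depended on how the lists were cut. With all deposited peaks 15 variable regions were called with age, 1 after LamC RNAi, 5 after LamB RNAi, 97 between w1118 and the attp lines and 22 between the attp lines, against 9, 0, 2, 29 and 6. With lists cut to 4245 peaks 0 were called in each comparison, 8 variable regions being left to test. With peaks of −log10 q of at least 5, 9 were called after LamB RNAi, 94 between strains and 14 between attp lines. With only the libraries of the comparison the counts were 0 for age, 0 for LamB RNAi and 1 for the attp lines. With regions in at least 6 libraries they were 0 for LamB RNAi and 18 for strains, and with 1-week control hearts only 11 for strains and 1 for attp lines. A test on presence called 4 with age, none of them among the 9, and 2 after LamC RNAi. Without the 3 libraries that opened the most variable regions, a choice made after seeing the data, 8 were called with age and 29 between strains. After LamC RNAi and LamB RNAi 0 were called, and between attp lines 1. Leaving out 1 library gave 7 to 12 calls with age, 0 to 1 for LamC (1 without LamC RNAi replicate 2 or 3), 0 to 4 for LamB, 23 to 35 for strains and 3 to 9 for attp lines (3 without LamC RNAi replicate 4 or attp2 replicate 3). All-or-none regions in cut lists numbered 19 for age, 1 for strains and 0 for attp lines, against 56, 3 and 1. The difference in variable regions per library ran from 44.8 to 119.8 for age, −21.0 to 84.7 for LamC, 12.2 to 61.0 for LamB, 34.5 to 74.7 for strains and −19.9 to 31.4 for attp lines as each library was left out, and was 225 between strains with all deposited peaks (adjusted exact permutation p = 0.0482). That last value comes from the lists the rule was applied to, so nothing on strain is read from it. The cause of the changes between settings was not tested.

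The labels do not say that replicate numbers pair libraries, and deviations of same-numbered libraries correlated at 0.02 to 0.15 for age, −0.27 to 0.04 for LamC and 0.08 to 0.21 for LamB, so they were not paired. With a replicate block 9, 0, 0, 24 and 5 regions were called in the 5 comparisons, and the limma adjusted p after LamB RNAi was 0.193 at CG13285 and 0.126 at hoka. Over the named calls, 236 repeats that left out 1 library stayed past the threshold and 62 did not; under the other settings 112 did and 74 did not, and none of these changed direction. The rule itself gave 930 regions in cut lists, 908 within 250 bp, 1231 within 1000 bp and 1001 with merging over at least 50 bp. Sequencing depth is unknown, the lists hold only peaks past the authors' threshold, and absence of a peak does not show closed chromatin.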
